A study of Rattus norvegicus with 10 samples.

Results

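Transcripts of 8 mast cell genes were examined in whole mammary glands of young female rats. The genes were the tryptases Tpsb2 and Tpsab1, the chymase Cma1, carboxypeptidase A3 (Cpa3), histidine decarboxylase (Hdc), the IgE receptor chains Fcer1a and Ms4a2, and Kit, the receptor of stem cell factor. Members were the probe sets whose single annotated gene symbol was one of these 8. There were 9 such probe sets among 15866 that were not controls, because Ms4a2 had 2, and all 8 genes were on the array, of 10411 named genes in all. The main tests were limited to probe sets with an average log2 signal at or above the 40th percentile, which was 7.468. Of the 9 member probe sets, 7 reached it, for 7 of the 8 genes.

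The glands came from female SD rats at postnatal day 21. From gestation day 4 up to weaning they were exposed to AIN-93G, a purified rodent diet, with soy protein isolate (soy) or casein (casein) as its protein. There were 5 arrays for each diet, each array measuring biotin-labelled cRNA in 1 colour. All animals shared strain, sex and age, and the glands were taken whole, with any lymph node, muscle or nerve in them. The labels mention RNA pools and several cRNA targets made from a pool, so the arrays may not be separate animals, and p-values cover only the spread among these arrays, some of which may be technical.

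Mast cells are tissue-resident immune cells that store tryptase, chymase, carboxypeptidase and histamine in granules and release them when antigen crosslinks IgE on the high-affinity receptor Fc epsilon RI. Their survival depends on Kit signalling. They are common in connective tissue, including the stroma and fat pad of the mammary gland, where work in the mouse has linked them to duct growth. In whole tissue, fewer mast cells and less RNA per mast cell cannot be told apart.

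Promoter sequence from RefSeq, build GRCr8, was found for 7 of the 8 genes. The sequences of Cpa3 and Tpsab1, the pair of members whose signals were most alike over the arrays, are shown with that of Tpsb2, the tryptase gene next to Tpsab1 on the chromosome. The annotated Cpa3 gene reaches position 104673253, so the start used for Cpa3 lies inside the gene and the stretch shown overlaps it slightly. Each motif was searched on both strands, and capitals mark its letters. They are GATAA, a core bound by GATA factors such as GATA2. They are also CACATG, an E-box core as bound by MITF, and the letters of the TATA box, TATAAA. The marked stretches do not overlap in the sequences shown.
Cpa3, 250 bases upstream of the start, chr2:104673238-104673487, minus strand: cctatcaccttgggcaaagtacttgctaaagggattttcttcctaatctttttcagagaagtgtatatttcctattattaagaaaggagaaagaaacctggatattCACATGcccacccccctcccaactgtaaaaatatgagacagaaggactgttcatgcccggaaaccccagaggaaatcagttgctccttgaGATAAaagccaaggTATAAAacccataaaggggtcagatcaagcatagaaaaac
Tpsab1, 250 bases upstream of the start, chr10:14867303-14867552, minus strand: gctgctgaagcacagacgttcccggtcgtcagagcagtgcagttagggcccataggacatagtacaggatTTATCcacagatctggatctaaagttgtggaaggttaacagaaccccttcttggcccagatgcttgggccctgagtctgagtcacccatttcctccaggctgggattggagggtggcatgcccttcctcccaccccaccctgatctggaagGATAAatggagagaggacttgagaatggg
Tpsb2, 250 bases upstream of the start, chr10:14886060-14886309, plus strand: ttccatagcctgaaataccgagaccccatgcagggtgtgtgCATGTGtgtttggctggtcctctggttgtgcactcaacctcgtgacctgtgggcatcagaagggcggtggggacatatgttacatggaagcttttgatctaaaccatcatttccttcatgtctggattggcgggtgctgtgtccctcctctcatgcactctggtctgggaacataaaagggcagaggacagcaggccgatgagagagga
The GATA motif was present upstream of 4 of the 7 genes (Cma1, Cpa3, Fcer1a and Tpsab1), against 23.5% of 33469 promoters of the same length. The E-box was present in 3 of the 7 (Cpa3, Fcer1a and Tpsb2), against 12.1% of promoters, and the TATA box letters in 2 (Cpa3 and Fcer1a), against 12.9%. A match describes letters and not a bound site. Tpsab1 had the GATA letters at 2 places, from -180 and from -29 relative to the start, and Tpsb2 had none in this window. The transcripts of both named factors were measured on the arrays: Gata2 averaged 8.97 ± 0.18 in soy glands and 8.86 ± 0.067 in casein glands (log2 signal, SD, n = 5 each), and Mitf averaged 8.37 ± 0.24 in soy glands and 8.29 ± 0.25 in casein glands.

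The first comparison asks whether dietary soy protein changed mast cell transcripts in the gland. None of the tested members passed. Of the 7 tested probe sets, 0 had an adjusted p under 0.05 (limma), against 0 of all 9520 probe sets (0%), and 0 had an unadjusted p under 0.05, against 433 (4.55%). The diets overlapped in each of the 7, while 76 of all tested probe sets (0.798%) had arrays of the diets that did not overlap. The difference, soy minus casein, was positive for 3 members and negative for 4, against 47.3% positive over all probe sets. Of the 4 negative members, Fcer1a and Ms4a2 lay close to the filter. Their soy means, 7.423 and 7.443, were under its value and their casein means, 7.525 and 7.518, above it. Both thus entered the count through their casein arrays, and no conclusion on direction is drawn from it. The median difference of the members was -0.0076 on the log2 scale, against -0.010 over all probe sets, and the median absolute difference was 0.10 for both.

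Among the proteases, Tpsb2, the rat counterpart of mouse mast cell protease 6, stood at log2 signals of 9.84, 10.20, 10.01, 9.24 and 10.33 in soy arrays 147, 149, 155, 157 and 159. In casein arrays 10, 18, 20, 6 and 7 it stood at 9.83, 8.91, 9.64, 9.85 and 9.73. It was lowest in casein 18, and 4 of the 5 soy arrays lay above the casein mean. Tpsb2 had the largest difference between the diets among the tested members, 0.33 ± 0.23 (SE, n = 5 per diet; 95% interval -0.16 to 0.83; limma adjusted p = 0.98; exact permutation p = 0.254), and the difference was 0.16 without casein 18 and 0.50 without soy 157. The tryptase Tpsab1, the counterpart of mouse protease 7, had 8.97, 10.21, 8.54, 8.77 and 9.88 in the soy arrays, in the same order of arrays, and 9.35, 8.57, 8.93, 10.17 and 8.85 in the casein arrays. The soy arrays thus ran from 8.54 to 10.21 and the casein arrays from 8.57 to 10.17, and the difference of 0.10 ± 0.36 (SE; interval -0.70 to 0.90; limma adjusted p = 0.9995) lay within that spread. It was -0.13 without soy 149, -0.052 without soy 159 or casein 18, and 0.35 without casein 6. The tryptase genes resemble each other in sequence, and to what extent a probe set takes up the other transcript was not tested.

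Cpa3, the zinc protease that trims peptides after the chymase has cut, had 11.74, 11.97, 11.16, 10.95 and 11.93 in the soy arrays and 11.84, 10.90, 11.50, 12.25 and 11.32 in the casein arrays. The highest and the lowest arrays, casein 6 and casein 18, were of the same diet and differed 2.56-fold. The diet means were 11.55 ± 0.47 in soy and 11.56 ± 0.51 in casein (SD, n = 5 each), a difference of -0.0076 ± 0.27 (SE; interval -0.59 to 0.57). It was positive, at 0.061 to 0.17, without soy 155, soy 157, casein 10 or casein 6. Cma1, the chymase that converts angiotensin I in several species, had 10.54, 11.07, 10.93, 9.82 and 11.08 in the soy arrays and 10.31, 10.37, 10.85, 11.18 and 10.35 in the casein arrays. Soy 157 was the lowest and casein 6 the highest. The difference was 0.077 ± 0.25 (SE; interval -0.48 to 0.63). It was -0.021 without soy 159, -0.018 without soy 149 and 0.29 without soy 157.

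Hdc makes histamine from histidine. Its signals were 8.07, 8.13, 8.02, 7.80 and 8.48 in the soy arrays and 8.42, 7.96, 8.15, 8.98 and 8.07 in the casein arrays. Only soy 159 of the soy arrays lay above the casein mean, and casein 6 was the highest of all 10. The difference was -0.22 ± 0.20 (SE; interval -0.65 to 0.21; limma adjusted p = 0.99; exact permutation p = 0.381), and -0.050 without casein 6. An interval of this width does not show that the diets give the same level of Hdc transcript.

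The alpha chain of the IgE receptor, Fcer1a, which binds IgE, had 7.23, 7.56, 7.27, 7.41 and 7.65 in the soy arrays and 7.93, 6.89, 7.61, 7.89 and 7.31 in the casein arrays. The soy arrays lay inside the range of the casein arrays, and the difference was -0.10 ± 0.20 (SE), with values from -0.26 without casein 18 to -0.0013 without casein 10. The beta chain Ms4a2, which amplifies the receptor signal, had 7.27, 7.50, 7.24, 7.11 and 8.09 in the soy arrays and 7.55, 7.30, 7.63, 7.90 and 7.21 in the casein arrays at the brighter of its 2 probe sets. The array highest for it was soy 159, and the difference was -0.075 ± 0.21 (SE), at 0.0087 without soy 157 and 0.021 without casein 6. Means of 7.474 for Fcer1a and 7.48 for this Ms4a2 probe set lay just inside the filter. Their soy means, 7.423 and 7.443, lay under the filter value, and their casein means, 7.525 and 7.518, above it. The dimmer Ms4a2 probe set averaged 6.48 and lay outside it, with means of 6.37 ± 0.42 in soy and 6.59 ± 0.20 in casein (SD, n = 5 each). It was lowest in soy 155 and highest in casein 7, unlike the first Ms4a2 probe set.

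Kit is also made outside mast cells, in luminal progenitor cells and melanocytes among others. With a mean of 7.05 it lay outside the filter and was not in the main test. It had 7.64, 7.01, 6.69, 5.16 and 7.21 in the soy arrays and 7.62, 6.81, 7.16, 7.08 and 8.12 in the casein arrays. Soy 157 was far below the rest and casein 7 was the highest, a spread of 7.76-fold. The diet means were 6.74 ± 0.95 in soy and 7.36 ± 0.52 in casein (SD, n = 5 each). In a fit to all probe sets the difference was -0.62 ± 0.42 (SE, interval -1.55 to 0.31, limma adjusted p = 0.88, exact permutation p = 0.246).

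**Figure D1:**
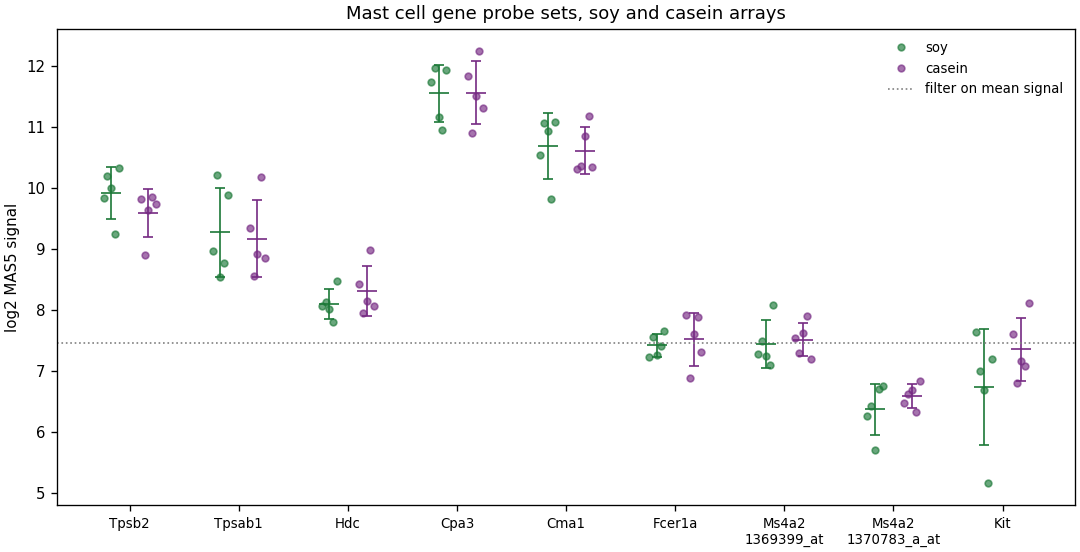
Log2 MAS5 signal (vertical axis) of the 9 probe sets of mast cell genes, with 1 point per array, soy left of casein, and a bar for the mean ± SD of 5 arrays. The diets overlap at each probe set, and the dotted line is the filter of 7.468 on the mean signal.

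**Figure D2:**
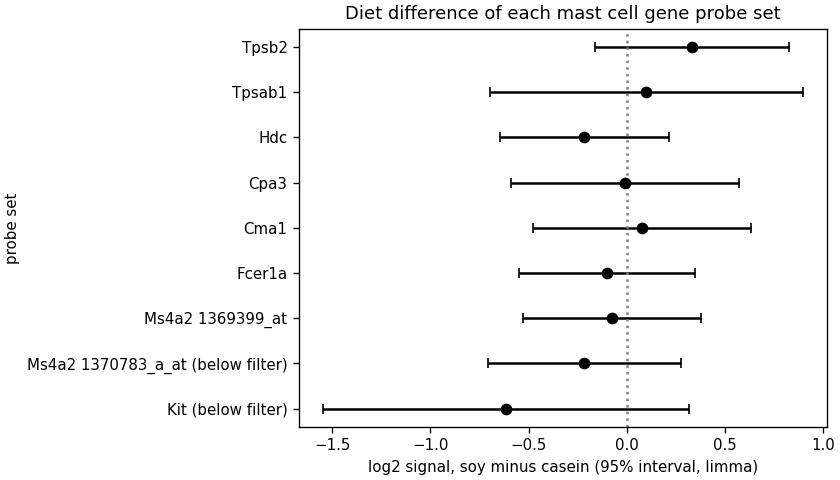
Difference in log2 signal, soy minus casein, of each probe set with its 95% interval from limma; the 2 probe sets below the filter come from a fit to all probe sets. Each interval contains 0. Tpsb2 lies farthest to the right at 0.33, and Kit, below the filter, farthest to the left at -0.62.

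Other genes of mast cell biology did not pass either. Of 38 listed, 28 were on the array and 17 were tested. Of these 17, 10 had a positive and 7 a negative difference (median 0.066), against 47.3% positive over all tested probe sets. An adjusted p under 0.05 (limma) was reached by 0 of the 17, against 0% of all tested probe sets. An unadjusted p under 0.05 was reached by 1 of the 17, against 4.55% of all. That 1 was Mcpt1l1, a gene like mast cell protease 1, with 11.02, 11.23, 10.997, 10.77 and 11.65 in the soy arrays and 11.75, 11.13, 11.59, 12.27 and 11.38 in the casein arrays. The difference was -0.49 ± 0.21 (SE, n = 5 per diet; limma adjusted p = 0.98), with casein 6 the highest array. Mcpt1l1 has close relatives in the rat genome, and binding of their transcripts to its probes was not tested. Ltc4s, the leukotriene C4 synthase, was at 0.26 ± 0.16 (SE), and Ptgs1, a prostaglandin synthase, at 0.18 ± 0.14 (SE). The kinase Lyn was at -0.21 and the adaptor Lcp2 at -0.65 ± 0.59 (SE), and both are also used by lymphocytes or other leukocytes. Their dimmer probe sets differed from these, with 0.086 for Lyn, of the opposite sign, and -0.099 for Lcp2. The transcription factor Gata2 was at 0.11. Kitlg, the ligand of Kit, averaged 10.03 ± 0.13 in soy and 10.04 ± 0.25 in casein at its brightest probe set (SD, n = 5 each).

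Of 8 listed genes that break histamine down or sense it, 2 passed the filter. Aldh7a1, an aldehyde dehydrogenase, had a difference of -0.19 ± 0.10 (SE), and Maob, monoamine oxidase B, which oxidises methylhistamine, of -0.065 ± 0.12 (SE), both with a limma adjusted p of at least 0.98. Signals of Hnmt, the histamine methyltransferase, lay between 1.20 and 5.92 at its 2 probe sets. The brighter averaged 5.25 ± 0.41 in soy and 3.97 ± 1.06 in casein (SD, n = 5 each). The dimmer averaged 4.33 ± 0.19 in soy and 3.10 ± 1.35 in casein. Both were under the filter and outside the main test. In the fit to all probe sets, which includes them, 0 probe sets had an adjusted p under 0.05 (limma). Signals of the receptor Hrh1 lay between 0.77 and 3.46, and of Hrh2 between 5.72 and 6.93. Hrh3 lay between 4.79 and 7.54 at its 2 probe sets, and Hrh4 between 0.85 and 2.72. Aoc1, the diamine oxidase that degrades histamine, lay between 6.64 and 7.83, and it and Hrh3 exceeded the filter value in some arrays but not on average. Detection calls were not used here, so these values were not set against background.

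The second comparison asks whether mast cell transcripts vary together between arrays. The tested members were high and low in much the same arrays. Soy 159 was among the 3 highest arrays for 7 of the 7 tested probe sets, casein 6 for 6 and soy 149 for 4. Soy 157 was among the 3 lowest for 6, soy 155 for 5 and casein 18 for 5. Kit and the dimmer Ms4a2 probe set, both under the filter, departed from this in part and were not in the pairs below. Both were highest in casein 7. Casein 6 ranked 6 of 10 for Kit and 8 for that Ms4a2 probe set, soy 157 ranked 10 and 3, and soy 159 ranked 4 and 2. All 21 pairs of tested members had a positive Pearson correlation over the 10 arrays, from 0.35 for Cma1 with Fcer1a to 0.89 for Tpsab1 with Cpa3. The median was 0.70, against 0.012 over all pairs of tested probe sets, and 11 of the 21 pairs reached 0.7, against 3.32% of all pairs. Members within 1 array share its RNA and its scaling.

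Permutation tests over the 21 pairs, adjusted together and two-sided, passed for 12 with Pearson's r and for 5 with Spearman's rho. Tpsab1 with Cpa3 had r = 0.89 (adjusted permutation p = 0.0104) and rho = 0.95 (adjusted permutation p = 0.0032). Hdc with Cpa3 had r = 0.82 (adjusted permutation p = 0.0104) and rho = 0.87 (adjusted permutation p = 0.0162). Hdc with Ms4a2, at its brighter probe set, had r = 0.82 (adjusted permutation p = 0.0293) and rho = 0.87 (adjusted permutation p = 0.0162). Without the 2 arrays farthest from the median of the first gene of a pair, 1 pair passed at 8 arrays, and the median r was 0.55. It was Tpsab1 with Cpa3, with r = 0.85 (adjusted exact permutation p = 0.042). Tpsb2 with Cpa3 had r = 0.33 (adjusted exact permutation p = 0.50), against 0.73 over 10 arrays, and so did not pass without the 2 arrays most extreme for Tpsb2. Other pairs had a higher r at 8 arrays than at 10 and still did not pass: Tpsab1 with Hdc had 0.87, against 0.74, Tpsab1 with Ms4a2 had 0.87, against 0.75, and Fcer1a with Ms4a2 had 0.84, against 0.67 (adjusted exact permutation p = 0.056 to 0.065). Without casein 6 and soy 149 the median was 0.70 and 4 pairs passed. Tpsb2 with Cpa3 was not among these 4, with r = 0.78 (adjusted exact permutation p = 0.067).

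**Figure D3:**
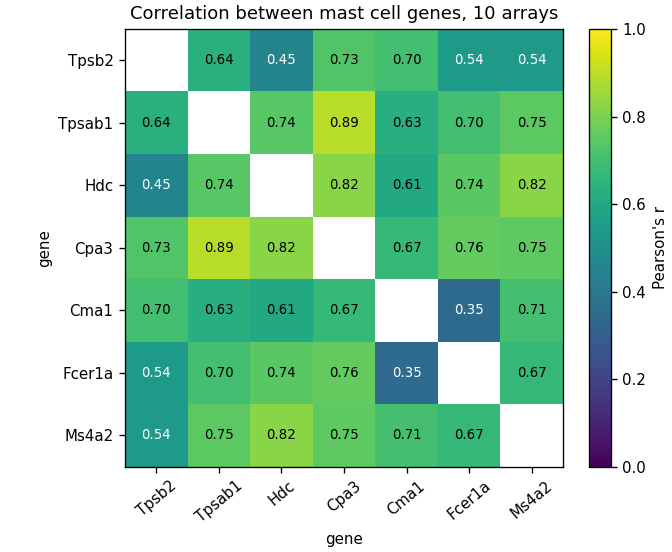
Pearson's r between the log2 signals of each pair of the 7 tested mast cell genes over the 10 arrays, from 0 (dark) to 1 (light). Tpsab1 with Cpa3 is highest at 0.89 and Cma1 with Fcer1a lowest at 0.35.

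Some other tissue signals were lowest or highest in the 3 arrays where the members were often high. Soy 149, soy 159 and casein 6 had the lowest means of the luminal epithelial markers, 7.51, 6.70 and 6.48 (6 of 12 markers tested, with Krt8 the brightest), against 8.32 to 10.60 in the other 7 arrays. No luminal marker was at the floor, and the lowest was Krt18 at 4.49 in casein 6. The same 3 arrays had the highest means of the fibroblast and matrix markers (12 of 12 tested), 12.40, 12.31 and 12.35, against 11.88 to 12.27 in the others. The arrays low for the members did not stand together there, with 12.27 in soy 157, 12.19 in casein 18 and 11.88 in soy 155. The macrophage markers (9 of 12 tested) ran from 10.53 to 10.93 in soy and from 10.30 to 10.90 in casein arrays. The skeletal muscle markers (11 of 17 tested) ran from 6.50 to 13.68 in soy and from 6.67 to 13.48 in casein. Their medians over the arrays were uneven, at 12.35 in soy and 6.82 in casein. Of the 11 markers, 10 had a positive difference (median 2.31), and 0 had an adjusted p under 0.05 (limma). Muscle signal was high in soy 147, 149 and 157, at 12.35, 13.23 and 13.68, and in casein 6, at 13.48. It was low in soy 159, at 6.50, and in casein 18, at 6.67. The log2 ratio of the actin control probe sets, 3' over 5', a sign of RNA quality, lay between 0.50 and 0.65 in soy and between 0.29 and 0.63 in casein arrays. The part of these signals in the shared pattern was not tested. For the basophil, which shares IgE receptors with the mast cell, the protease Mcpt8 lay between 0.38 and 4.10, and the eosinophil granule protein Prg2 between 6.78 and 7.38, both under the filter. Of that list of 10 genes, 5 were on the array and Alox15, which macrophages also express, was tested, with means of 10.49 in soy and 10.24 in casein.

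The genes most like the mast cell pattern were named by the Pearson correlation with the mean of the 7 standardised members over the 10 arrays, given as a description. Akirin2, a nuclear protein of innate immune signalling, had r = 0.95, with signals from 8.46 to 8.77 in soy and from 8.43 to 8.67 in casein. Vegfa, the vascular growth factor, had r = 0.92, with 9.99 to 10.72 in soy and 10.03 to 10.73 in casein. The annotated symbol PCOLCE2, a procollagen C-proteinase enhancer, and the microfibril gene Mfap5 had r = 0.91 and 0.90. Agtr1a, an angiotensin II receptor, had r = 0.90 and was 9.34 to 10.22 in soy and 9.61 to 10.22 in casein. Pf4, a chemokine of platelets and megakaryocytes, had r = 0.90, with 9.12 to 10.01 in soy and 9.25 to 10.14 in casein. Mfap5 is also in the fibroblast and matrix list. None of the 6 passed between the diets (limma adjusted p = 0.9995 for each), and their differences lay between 0.0055 and 0.086.

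The third comparison set the members against Cd37, a tetraspanin of mature B cells and other leukocytes that served as the lymph node signal. Cd37 had 9.01, 6.98, 10.69, 9.36 and 9.54 in the soy arrays and 9.93, 9.46, 10.08, 8.43 and 9.67 in the casein arrays. Soy 149 and casein 6 were lowest. The mean of the other lymph node markers set these 2 arrays apart more sharply, at 6.15 and 6.08, against 8.87 to 9.70 in the other 8. Casein 6 was among the 4 highest arrays for each of the 7 tested members. Soy 149 was among the 3 highest for 4 of them (Tpsb2, Tpsab1, Cpa3 and Cma1) and ranked 5 of 10 for Hdc, Fcer1a and Ms4a2. Soy 159, among the 3 highest for all 7, had a Cd37 signal of 9.54, near the middle of the range.

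Because those 2 arrays stand apart, the relation was tested over the other 8. There, r with Cd37 ran from -0.20 for Tpsab1 to 0.44 for Cma1, with a median of 0.13 against 0.048 over all tested probe sets (quartiles -0.25 and 0.35). None of the 7 correlations passed, with an exact permutation p adjusted over the 7 of 0.88 for each r and of 0.82 to 0.84 for rho. For Tpsab1, r was -0.20 and rho -0.17. For Cpa3, r was -0.10 and rho 0.10. For Tpsb2, r was 0.29 and rho 0.24. Without the 2 arrays farthest from the Cd37 median, r was 0.16 for Tpsab1 and 0.54 for Cpa3 over 6 arrays. With 8 arrays, a p that misses the threshold does not show that the signals are unrelated.

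**Figure D4:**
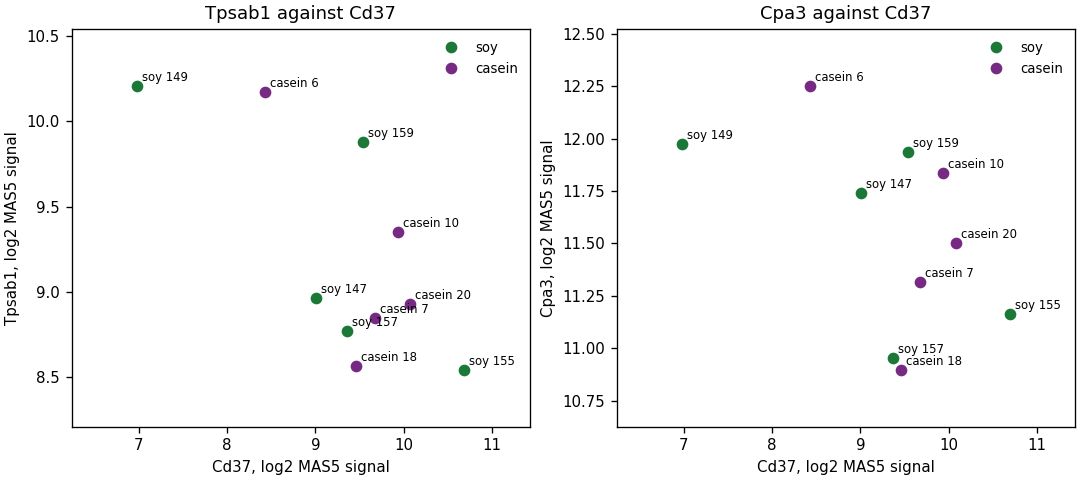
Log2 signal of Tpsab1 (left) and Cpa3 (right) against that of Cd37, with 1 labelled point per array, soy green and casein purple. Soy 149 and casein 6 lie at the upper left, and the other 8 arrays show no common slope.

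**Figure D5:**
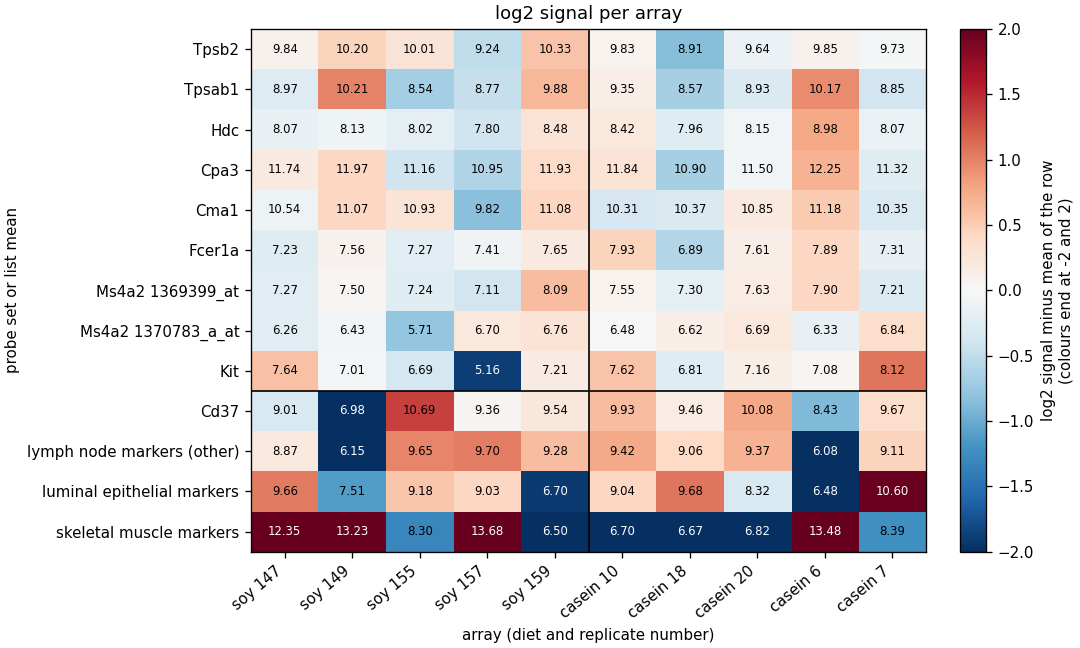
Log2 signal of each member probe set, of Cd37 and of 3 marker list means (rows) in each array (columns, soy left of casein), coloured by the distance from the row's mean on the log2 scale. Soy 159 and casein 6 are red in most mast cell rows, and soy 149 in those of Tpsb2, Tpsab1, Cpa3 and Cma1. These 3 arrays are blue in the luminal row.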

How the data were processed

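Whole mammary gland RNA of 10 samples, 5 per diet, was measured on 1-colour arrays. The intensity values deposited by the authors are MAS5 signals on a linear scale, per the submitters' processing notes. The sources used here give no MAS5 version or settings. Their 2% trimmed mean was 500.1 on each array, so the deposited scaling was kept, and the median signal ran from 255.7 to 286. The number of arrays limits the precision.

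Signals under 1 were set to 1 and log2 was taken. Platform annotation named 1 gene for 12783 of 15866 probe sets, and 57 controls were left out. Probe sets at or above the 40th percentile of mean log2 signal (9520, for 7151 genes) were tested with limma 3.58.1 in R 4.3.3 (lmFit, eBayes with an intensity trend, two-sided, Benjamini-Hochberg over all tested, threshold 0.05), and tested on simulated data. Single values were also tested by exact permutation over 252 assignments, whose smallest p is 0.0079, and correlations by 100000 permutations, exact under 10 arrays. The median SE of a difference was 0.144 over all tested probe sets.

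Genes named by rule are the members, the tested genes of smallest p in 2 lists (up to 6 and 3), the 6 most like the member mean, and Cd37. The brightest gene is named for the luminal list, and the 1 tested gene for the basophil and eosinophil list. Further genes, such as Kitlg, Hnmt and Prg2, come from the lists and fall outside this rule. Adipocyte, nerve, endothelial and melanocyte lists are not shown. For a gene with several probe sets the brightest stood in lists. Members and lists were chosen with earlier results of these data known. The alternatives were scalings, filters, an offset of 16, variance models, array weights, covariates and leaving out arrays; the luminal covariate, leaving out 3 arrays, diet centring and pairs over 8 arrays were added after seeing the data. The labels give the diets no replicate number in common.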

Additional observations from a re-analysis of the deposited data

Results flagged for a closer look

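In 58 groups of 5 arrays examined for a single array far from the rest, 5 had one, and chance gives about 1 in 20. Tpsb2 was 8.91 in casein 18, and 9.64 to 9.85 in the rest of the casein arrays. The mean of the lymph node markers other than Cd37 was 6.15 in soy 149, with the other soy arrays at 8.87 to 9.70. The same mean was 6.08 in casein 6, with the other casein arrays at 9.06 to 9.42. The mean of the skeletal muscle markers was 13.48 in casein 6 and 6.67 to 8.39 in the rest of that diet. Agtr1a, among the genes most like the mast cell pattern, was 10.22 in casein 6 and 9.61 to 9.78 in the rest of that diet.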

How the results depend on the processing

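Under the 24 alternatives, leaving out arrays included, limma called 0 probe sets and 0 members at an adjusted p under 0.05, while 271 to 843 probe sets had an unadjusted p under 0.05. Of the members, Tpsb2 reached it without soy 157 (limma unadjusted p = 0.027, adjusted p = 0.998), where 335 of the 9520 probe sets did. At the 60th percentile filter Hdc, Fcer1a and Ms4a2 were left out. Tpsb2 and Hdc kept their sign in the alternatives run. Without 1 array the differences ran from -0.13 to 0.35 for Tpsab1, -0.17 to 0.17 for Cpa3, -0.021 to 0.29 for Cma1 and -0.24 to 0.021 for Ms4a2. Array weights turned Cpa3 to 0.12 and Ms4a2 to 0.095. Tpsab1 was -0.084 with Cd37 as a covariate and -0.084 with muscle markers. With the actin ratio Cpa3 was 0.21, Cma1 -0.026 and Fcer1a 0.043, and with luminal markers Tpsab1 was -0.064 and Cma1 -0.018. Without casein 6 and soy 149 Cpa3 was 0.060 and Ms4a2 0.0069, and without soy 159 as well Tpsab1 was -0.16 and Cma1 -0.040. Against Cd37, all 10 arrays gave r of -0.22 for Tpsb2, -0.22 for Hdc, -0.29 for Cma1, -0.17 for Fcer1a, -0.18 for Ms4a2, -0.51 for Cpa3 and -0.72 for Tpsab1 (adjusted permutation p = 0.087 for Tpsab1, and 0.44 to 0.65 for the others). Over 6 arrays r was 0.16 for Tpsab1 and 0.54 for Cpa3, and with the other lymph node markers -0.13 for Hdc, -0.11 for Cma1 and -0.055 for Ms4a2. Of the 21 pairs, 12 passed over 10 arrays, 1 without the 2 farthest arrays, 13 after quantile normalization, 4 without casein 6 and soy 149, and 19 after centring on the diet means, where permuting centred values makes p slightly too small. The cause of these changes was not tested. No paired analysis was possible because the diets share no replicate numbers.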
